A study of Mus musculus with 23 samples.

Results

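Antioxidant and ferroptosis defence genes were followed across the hippocampus of anemic and non-anemic mouse pups. The set holds 10 genes, chosen by symbol as the rows of the count table named Nfe2l2, Gpx1, Gpx4, Slc7a11, Sod1, Sod2, Cat, Gclc, Gclm and Txnrd1, out of 24421 rows in all. All 10 were found, and 10 of 10 passed the low-count filter that left 15475 genes for testing.

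The study drew blood repeatedly from neonatal mice to cause anemia (phlebotomy-induced anemia, PIA) and sequenced polyadenylated RNA of the hippocampus at postnatal day 14. Pups with severe anemia (sPIA) were bled toward a haematocrit, the red-cell share of blood volume, of 18%, and those with moderate anemia (mPIA) toward 25%, while non-bled controls (NBC) had only a needle prick to the neck. From postnatal day 3, blood was drawn 2 times a day at 5.25 µl per g of body weight, and after the goal had been met only 3.5 µl per g was taken each day. There were 4 libraries each of sPIA, mPIA and NBC females, 4 each of sPIA and mPIA males, and 3 of NBC males (numbers 2, 3 and 4). The sources used here do not give strain or genotype, and the haematocrit is a goal rather than a value measured per pup.

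Reactive oxygen species are removed in steps. Superoxide dismutases turn superoxide into hydrogen peroxide, which catalase and the glutathione and thioredoxin systems reduce. Ferroptosis is an iron-dependent form of cell death driven by lipid peroxides, and the selenoenzyme GPX4 reduces those peroxides with glutathione, whose synthesis needs cystine brought in by the transporter that SLC7A11 forms part of. Many genes of these systems carry antioxidant response elements, to which the transcription factor NRF2 (the product of Nfe2l2) binds once it escapes degradation through KEAP1. Oxygen supply, iron and oxidative stress are all linked to neonatal anemia, and the developing hippocampus is known to be sensitive to iron and oxygen shortage.

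Because NRF2 binding sites connect several of the genes, the promoters were searched for the core of the antioxidant response element, TGACNNNGC, on both strands, in windows from 250 bases before to 50 bases after each RefSeq transcription start (build GRCm38.p6). No other motif was sought, and overlap with related motifs was not examined. The letters occurred in 4 of 14 windows belonging to 9 of the genes, namely 1 window each of Nfe2l2, Gclm, Sod1 and Txnrd1, against 12.4% of the 32851 windows of all genes (4071 windows). The windows with the letters held 68.7% GC (Nfe2l2), 79.7% (Gclm), 66.7% (Sod1) and 61.3% (Txnrd1), beside a median of 52.7% over all windows. Gpx4 and Txnrd1 each gave several windows, some of Gpx4 overlapping, so the windows are not independent. The difference between the shares was not tested. Gclc had no window to search. Windows are printed here for Nfe2l2, whose transcript rose in sPIA against NBC females, for Gclm and Txnrd1, which hold the letters and whose transcripts passed no test, and for Gpx1, whose transcript fell in that comparison and whose window does not hold them. Capitals mark the match, written on the gene's own strand, so that in Gclm and Txnrd1 it reads as the reverse complement. A match is a string of letters and not a measured binding site.
Nfe2l2, chr2:75704614-75704913, minus strand: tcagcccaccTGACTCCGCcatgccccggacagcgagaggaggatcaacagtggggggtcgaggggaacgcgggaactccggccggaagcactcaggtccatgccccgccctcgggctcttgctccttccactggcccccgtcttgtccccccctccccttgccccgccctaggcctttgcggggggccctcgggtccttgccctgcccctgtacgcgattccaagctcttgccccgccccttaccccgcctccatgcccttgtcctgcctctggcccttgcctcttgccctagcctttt
Gclm, chr3:122245307-122245606, plus strand: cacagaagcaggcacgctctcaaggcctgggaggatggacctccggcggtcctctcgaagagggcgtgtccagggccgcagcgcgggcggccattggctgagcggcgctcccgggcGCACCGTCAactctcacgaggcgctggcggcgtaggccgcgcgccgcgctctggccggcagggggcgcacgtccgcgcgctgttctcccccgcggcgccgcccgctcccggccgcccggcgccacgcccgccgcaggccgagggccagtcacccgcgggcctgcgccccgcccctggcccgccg
Txnrd1, chr10:82858956-82859255, plus strand: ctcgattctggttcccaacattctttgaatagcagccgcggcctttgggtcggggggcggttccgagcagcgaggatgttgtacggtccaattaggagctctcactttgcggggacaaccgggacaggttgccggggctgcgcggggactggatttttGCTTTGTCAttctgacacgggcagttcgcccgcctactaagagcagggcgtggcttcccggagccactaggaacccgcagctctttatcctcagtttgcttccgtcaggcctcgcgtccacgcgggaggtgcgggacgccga
Gpx1, chr9:108338830-108339129, plus strand: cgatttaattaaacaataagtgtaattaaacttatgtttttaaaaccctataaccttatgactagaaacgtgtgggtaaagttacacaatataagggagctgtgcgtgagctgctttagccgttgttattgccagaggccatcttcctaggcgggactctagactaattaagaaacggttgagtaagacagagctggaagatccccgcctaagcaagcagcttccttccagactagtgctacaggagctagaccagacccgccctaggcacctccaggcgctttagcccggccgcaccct
The match began 240 bases before the start in Nfe2l2 (TGACTCCGC), 134 before it in Gclm (GCACCGTCA), 92 before it in Txnrd1 (GCTTTGTCA) and 56 before it in Sod1 (GCGTGGTCA). None of the windows of Gpx1, Gpx4, Slc7a11, Sod2 or Cat held the letters, which says nothing of sites outside the windows.

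Library totals lay between 15234793 and 26355712 counts, apart from mPIA female 3 with 44362539 counts. Markers of hippocampal neurons were present in every library, with a summed level of 1090 to 1500 counts per 1000000 (CPM) over 15 genes. Library code series in the labels followed the groups: NBC and mPIA females shared one kind of code, mPIA males had another, and sPIA females, sPIA males and NBC males yet another, in which the S number split sPIA from NBC males. Outside mPIA against NBC females, group and code therefore cannot be told apart. Gene levels also followed GC content differently by group. Genes are not independent replicates, but across them the departure of a library from the average library had a Spearman's rho with GC content of -0.45 to 0.04 in sPIA females, 0.16 to 0.49 in mPIA females and 0.19 to 0.56 in NBC females. In males it was -0.41 to -0.09 in sPIA, -0.1 to 0.31 in mPIA and -0.27 to 0.01 in NBC. The choroid plexus transcript Ttr stood at 2460 and 4380 CPM in NBC males 3 and 4, against 1.23 CPM in NBC male 2. Among females it stood at 1320 CPM in sPIA female 2 and 2020 CPM in NBC female 2, against 2.29 to 106 CPM in the other sPIA females and 21.7 to 43 CPM in the other NBC females. In these bulk samples, fewer cells of a type and less RNA per cell cannot be told apart.

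All 10 genes were well expressed. Per kb of exonic length, averaged over the 23 libraries, Sod1 was the most abundant at 174 CPM per kb, followed by Gpx4 at 63.7, Cat at 33.8, Gpx1 at 27.9, Sod2 at 24.9, Gclc at 20.4 and Txnrd1 at 19.8 CPM per kb. Nfe2l2 (6.27 CPM per kb), Slc7a11 (6.13 CPM per kb) and Gclm (5.68 CPM per kb) were the least abundant of the set. The lowest count of any of the genes in any library was 197, for Nfe2l2. The counting error of 1 library, at the mean count of its group, was 1.68% to 6.49% of the level, and in 5 of 60 combinations of gene and group the SD between libraries was below it, among them Nfe2l2 in NBC females (4.87% against 6.49%).

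In sPIA against NBC females, a comparison in which anemia and library code cannot be told apart, 3 of the 10 genes passed the test. Nfe2l2 rose 1.39-fold, while the glutathione peroxidase genes Gpx1 and Gpx4 fell to 0.729 and 0.788 of the NBC level. The remaining 7 genes, which include both superoxide dismutases, catalase and both subunits of the glutathione-building ligase, did not pass the test. With the GC and length trend of each library removed, Gpx1 (adjusted p = 0.15) and Gpx4 (adjusted p = 0.514, edgeR's quasi-likelihood test for both) no longer passed, and Nfe2l2 did not pass without sPIA female 3 (adjusted p = 0.0562). Of all genes tested, 16% were called in this comparison (8.12% higher and 7.86% lower), so calls were common across the transcriptome. The libraries of the groups did not overlap for 4 of the 10 genes (2 higher, 2 lower), where 21% of all genes did not overlap (9.85% higher, 11.2% lower). The median log2 change of the 10 genes was 0.08, beside 0 over all genes tested.

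**Figure D1:**
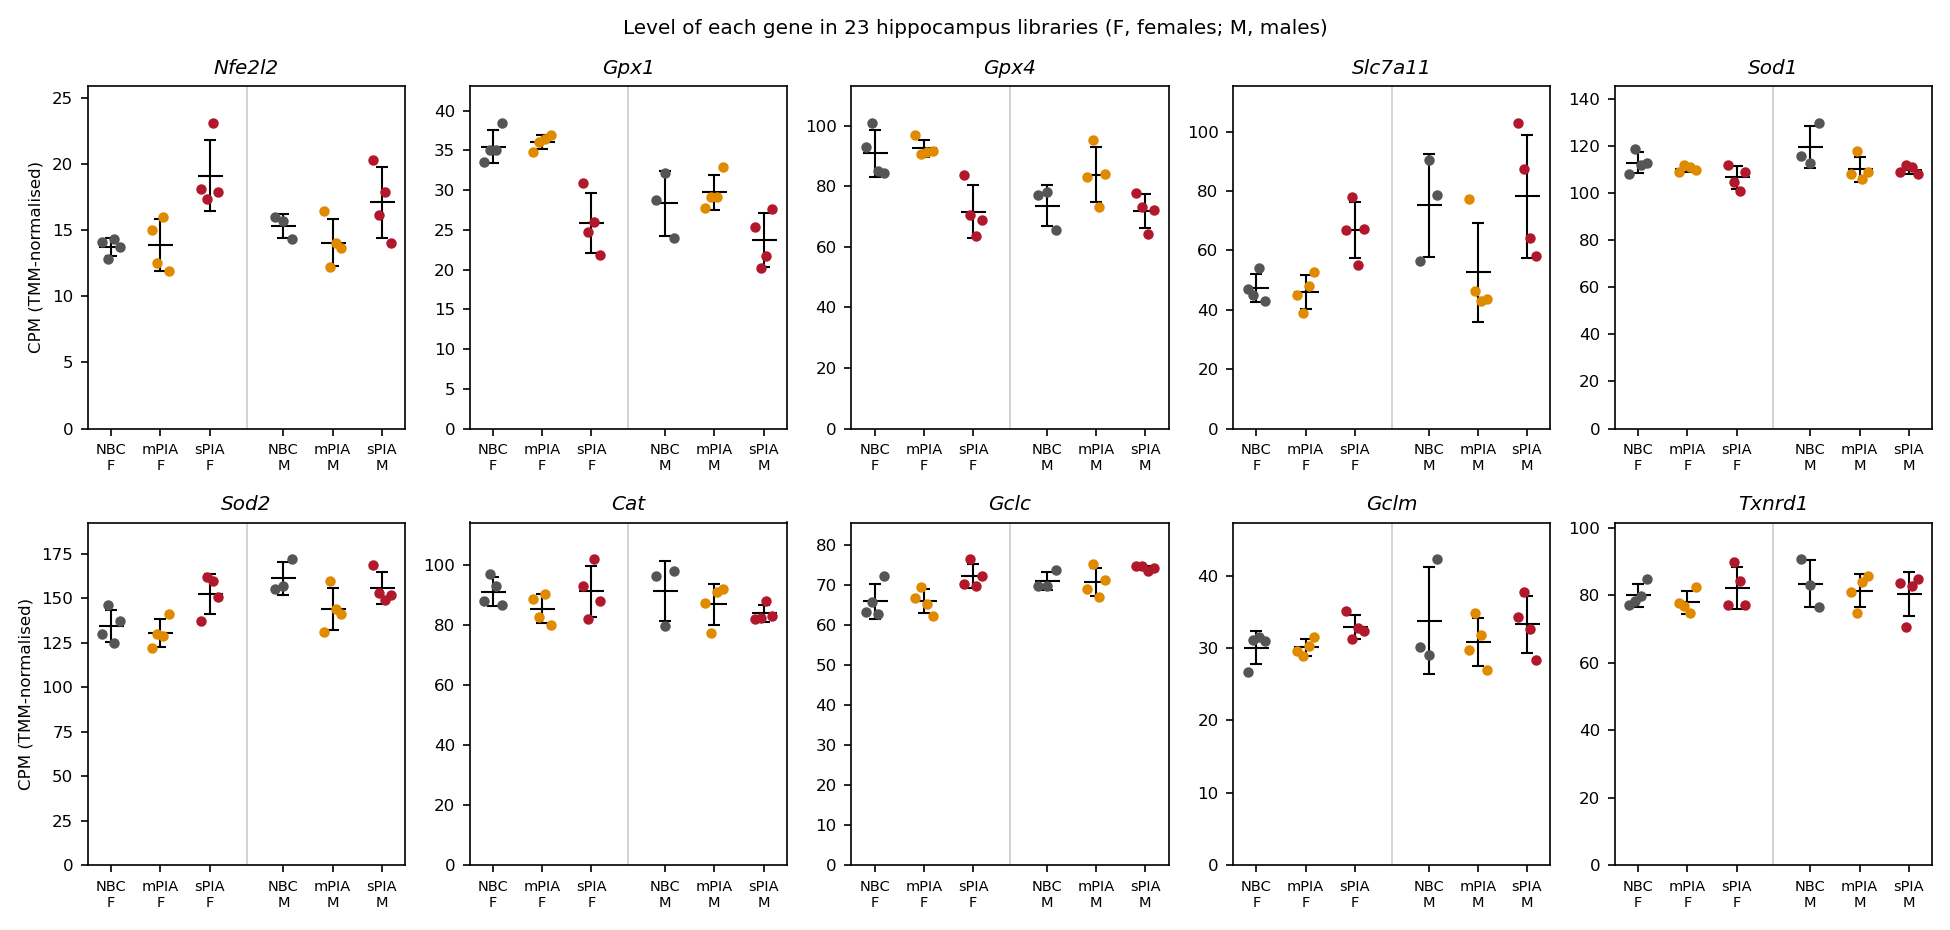
Levels of the 10 genes in CPM (vertical axes, from 0) in every library, by anemia level and sex; points are libraries, horizontal bars the group mean and whiskers 1 SD. In females the sPIA points of Nfe2l2 lie at 17.3 to 23.1 CPM, above all NBC points (12.78 to 14.296 CPM), and those of Gpx1 at 21.9 to 30.9 CPM, below all NBC points (33.5 to 38.5 CPM).

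Nfe2l2 (chromosome 2, 75675513 to 75704641, minus strand, GRCm38, also called mm10) encodes NRF2, the transcription factor that drives many antioxidant genes. It lay at 18.1, 17.3, 23.1 and 17.9 CPM in sPIA females 1 to 4, against 14.068, 12.78, 14.296 and 13.734 CPM in NBC females 1 to 4. All sPIA females were above all NBC females, and sPIA female 3 stood well above its group. The log2 change was 0.48 (SE 0.12, 95% interval 0.22 to 0.74, adjusted p = 0.00944, edgeR's quasi-likelihood test, n = 4 each). Without sPIA female 3 the log2 change was 0.38 and the call was lost (adjusted p = 0.0562), while the other 7 fits that left out 1 library kept it. After each library's trend with GC content and gene length had been removed, Nfe2l2 still passed, with a log2 change of 0.43 (adjusted p = 0.0321, edgeR's quasi-likelihood test), where 6.2% of all genes did (7.68% in sPIA against mPIA females).

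In mPIA females Nfe2l2 lay at 15, 12.5, 16 and 11.9 CPM, overlapping the NBC females on both sides. Against mPIA females, sPIA females were higher by 0.46 on the log2 scale (edgeR's quasi-likelihood test, SE 0.12, adjusted p = 0.0108), again without overlap. That comparison and the one with NBC females use the same sPIA libraries. Leaving out sPIA female 3 ended this call as well (log2 change 0.36, adjusted p = 0.0663).

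Males showed a smaller difference for Nfe2l2 that passed no test. The sPIA males had 20.3, 16.1, 17.9 and 14 CPM, the mPIA males 16.4, 12.2, 14 and 13.6 CPM, and NBC males 2, 3 and 4 had 16.037, 15.673 and 14.289 CPM. The sPIA males reached higher than the other males, but their lowest library was below all NBC males. The log2 change of sPIA against NBC males was 0.16 (95% interval -0.12 to 0.43, adjusted p = 0.678, edgeR's quasi-likelihood test), and against mPIA males it was 0.29 (95% interval 0.03 to 0.54, adjusted p = 0.167). The difference between the sexes in the sPIA effect on Nfe2l2, tested directly, was 0.32 (females minus males, SE 0.18, adjusted p = 0.385, edgeR's quasi-likelihood test), so the female change was not shown to differ from the male one. By group mean the order was sPIA females (19.1 ± 2.72 CPM, SD, n = 4), sPIA males (17.1 ± 2.68 CPM, SD, n = 4), NBC males (15.3 ± 0.922 CPM, SD, n = 3), mPIA males (14 ± 1.78 CPM, SD, n = 4), mPIA females (13.8 ± 1.96 CPM, SD, n = 4) and NBC females (13.7 ± 0.668 CPM, SD, n = 4), and no neighbours in it differed by more than the larger of their SDs.

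Slc7a11 (chromosome 3, 49892526 to 50443614, minus strand) encodes the cystine-importing subunit of system xc-, the entry point of glutathione synthesis. Its libraries spread widely. The sPIA females had 66.7, 78.1, 55.1 and 67.1 CPM, the mPIA females 44.9, 39, 47.9 and 52.7 CPM, and the NBC females 47.1, 45, 54 and 43 CPM. All 4 sPIA females were above all 8 other females, the lowest of them by a small margin. The log2 change against NBC females was 0.5 (SE 0.21, 95% interval 0.06 to 0.93), which did not pass in the fit of all libraries (adjusted p = 0.116, edgeR's quasi-likelihood test). It passed when the fit held only the sPIA and NBC females (adjusted p = 0.00475, edgeR's quasi-likelihood test), and the cause of that shift was not tested. Removal of the GC and length trend left a log2 change of 0.28 (adjusted p = 0.506, edgeR's quasi-likelihood test).

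Against mPIA females, Slc7a11 in sPIA females had a log2 change of 0.53 (edgeR's quasi-likelihood test, SE 0.21, adjusted p = 0.0885), which passed in a fit of those groups alone (adjusted p = 0.005) and by limma-voom (adjusted p = 0.0458). Astrocytes are a main site of this transporter in brain. The summed level of 15 astrocyte markers, all of them detected, was 8060 to 9810 CPM in sPIA females. It was 7500 to 8140 CPM in mPIA females, which overlapped them, and 7560 to 7870 CPM in NBC females, which did not. Against mPIA females 3 of the 15 were called higher and 1 lower, beside 16.1% of all genes in either direction. Between sPIA and NBC females 4 of the 15 were called higher and 1 lower, beside 8.12% of all genes higher and 7.86% lower. The part of astrocyte content in the Slc7a11 values was not tested.

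Among males Slc7a11 was most variable. The sPIA males had 103, 87.4, 64.2 and 58 CPM, the mPIA males 77.3, 46.3, 43.1 and 43.5 CPM, and NBC males 2, 3 and 4 had 56.3, 90.42 and 78.8 CPM. The groups overlapped, and a single mPIA male stood far above the other 3. NBC males 3 and 4, the higher of the controls, were also the NBC males with high Ttr, and the summed level of 15 meningeal and fibroblast markers was 256 to 783 CPM in NBC males, against 244 to 441 CPM in sPIA males and 173 to 300 CPM in mPIA males. The summed level of the 15 astrocyte markers was 8840 to 10100 CPM in NBC males, 7810 to 9860 CPM in sPIA males and 8440 to 9760 CPM in mPIA males. The part of any of these cell types in the Slc7a11 values of males was not tested. The log2 change of sPIA against NBC males was 0.06 (95% interval -0.4 to 0.52, adjusted p = 0.942, edgeR's quasi-likelihood test), and it ranged around 0, for example 0.22 without NBC male 3 and -0.12 without NBC male 2. For mPIA against NBC males the log2 change was -0.52 (edgeR's quasi-likelihood test, SE 0.22, adjusted p = 0.247). For sPIA against mPIA males it was 0.58 (edgeR's quasi-likelihood test, SE 0.2, adjusted p = 0.105), and it passed without mPIA male 1 (log2 change 0.83, adjusted p = 0.0325) or without sPIA male 4 (log2 change 0.7, adjusted p = 0.0446).

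Gclc and Gclm encode the catalytic and modifier subunits of glutamate-cysteine ligase, the rate-limiting step of glutathione synthesis. Gclc (chromosome 9, 77754535 to 77794485, plus strand) averaged 72.1 ± 3.07 CPM in sPIA females, 65.9 ± 2.97 CPM in mPIA females and 65.9 ± 4.37 CPM in NBC females (SD, n = 4 each). The sPIA females were above all mPIA females but overlapped the NBC females, and neither log2 change (0.13 with SE 0.06 in both) passed, at adjusted p = 0.136 against mPIA and 0.14 against NBC females (edgeR's quasi-likelihood test). Without NBC female 4, the highest of the controls, the change against NBC females was 0.18 and passed (adjusted p = 0.0475, edgeR's quasi-likelihood test). In males Gclc averaged 74.2 ± 0.583 CPM in sPIA (n = 4), 70.6 ± 3.54 CPM in mPIA (n = 4) and 71 ± 2.29 CPM in NBC (n = 3, SD throughout), with log2 changes of 0.07 for sPIA against mPIA and 0.06 for sPIA against NBC males.

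Gclm (chromosome 3, 122245557 to 122270732, plus strand) averaged 32.9 ± 1.65 CPM in sPIA females, 30.1 ± 1.16 CPM in mPIA females and 30.1 ± 2.27 CPM in NBC females (SD, n = 4 each), and the groups overlapped. Its log2 change in sPIA against NBC females was 0.13 (95% interval -0.08 to 0.35, adjusted p = 0.441, edgeR's quasi-likelihood test). In males it averaged 33.3 ± 3.91 CPM in sPIA (n = 4), 30.9 ± 3.37 CPM in mPIA (n = 4) and 33.8 ± 7.36 CPM in NBC (n = 3, SD throughout), where NBC male 4 alone reached 42.3 CPM. No comparison called either ligase subunit in the fit of all libraries.

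Gpx1 (chromosome 9, 108338903 to 108340343, plus strand) encodes the most widespread glutathione peroxidase, a selenoenzyme of cytosol and mitochondria that reduces hydrogen peroxide. It lay at 30.9, 24.7, 26 and 21.9 CPM in sPIA females, against 33.5, 35, 35 and 38.5 CPM in NBC females. All sPIA females were below all NBC females. The log2 change was -0.46 (SE 0.1, 95% interval -0.67 to -0.24, adjusted p = 0.00384, edgeR's quasi-likelihood test, n = 4 each), and the call was kept in all 8 fits that left out 1 library (log2 change -0.55 to -0.38).

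The mPIA females, at 34.8, 36.1, 36.4 and 37 CPM, lay among the NBC females. Against them the sPIA females fell by 0.48 on the log2 scale (edgeR's quasi-likelihood test, SE 0.1, adjusted p = 0.00205), also without overlap. In males Gpx1 had 25.4, 20.2, 21.7 and 27.6 CPM in sPIA, 27.7, 29.2, 29.2 and 32.9 CPM in mPIA and 28.8, 32.2 and 24 CPM in NBC. All sPIA males were below all mPIA males, narrowly at the margin, and overlapped the NBC males through NBC male 4. The log2 change was -0.33 against mPIA males (edgeR's quasi-likelihood test, SE 0.1, adjusted p = 0.0648) and -0.26 against NBC males (SE 0.11, adjusted p = 0.351). The first of these passed by DESeq2 (adjusted p = 0.0495) and without sPIA male 4 (log2 change -0.41, adjusted p = 0.024, edgeR's quasi-likelihood test). In the order of group means, the only gap wider than the SDs of both neighbours lay between NBC females (35.5 ± 2.1 CPM, SD, n = 4) and mPIA males (29.7 ± 2.21 CPM, SD, n = 4). The sexes were not shown to differ in the sPIA effect on Gpx1 (difference -0.2, females minus males, SE 0.15, adjusted p = 0.555, edgeR's quasi-likelihood test).

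Gpx4 (chromosome 10, 80047166 to 80056439, plus strand) encodes the phospholipid hydroperoxide peroxidase that holds back ferroptosis. It lay at 83.8, 70.5, 63.6 and 68.7 CPM in sPIA females, against 93.1, 101, 85.2 and 84.3 CPM in NBC females. The groups did not overlap, though sPIA female 1 came close to the lowest NBC female. Gpx4 fell, with a log2 change of -0.34 (SE 0.09, 95% interval -0.52 to -0.17, adjusted p = 0.00706, edgeR's quasi-likelihood test, n = 4 each), a call kept in all 8 fits that left out 1 library (log2 change -0.42 to -0.28). The mPIA females had 96.76, 90.55, 91.16 and 91.46 CPM, all above the sPIA females. Against them the log2 change was -0.37 (edgeR's quasi-likelihood test, SE 0.09, adjusted p = 0.00367).

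In males no test of Gpx4 passed. The sPIA males had 77.9, 73.3, 64.1 and 72.2 CPM, the mPIA males 83.2, 95.2, 73.1 and 84 CPM, and the NBC males 77, 78.1 and 65.7 CPM. The sPIA and NBC males covered almost the same range, and the mPIA males reached above both. The log2 change was -0.03 for sPIA against NBC males (95% interval -0.22 to 0.15, adjusted p = 0.917, edgeR's quasi-likelihood test) and -0.22 for sPIA against mPIA males (SE 0.09, adjusted p = 0.119). The difference of the sPIA effect between the sexes was -0.31 (females minus males, SE 0.13, unadjusted p = 0.0211, adjusted p = 0.216, edgeR's quasi-likelihood test) and did not pass. Mean levels ran from 92.5 ± 2.88 CPM in mPIA females and 90.9 ± 7.84 CPM in NBC females to 71.9 ± 5.78 CPM in sPIA males and 71.7 ± 8.62 CPM in sPIA females (SD, n = 4 each). The NBC males, at 73.6 ± 6.85 CPM (SD, n = 3), lay close to the severely anemic pups of both sexes and did not overlap the NBC females, a difference between control groups that was not tested. In the order of group means, the only gap wider than the SDs of both neighbours lay between mPIA males (83.9 CPM) and NBC males.

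Both peroxidase genes are short and rich in GC, the kind of gene on which the library trends bear. Gpx1 has 1072 exonic bases with 56.5% GC and Gpx4 1272 exonic bases with 58.3% GC, beside medians of 3338 bases and 50.2% over the genes tested. With each library's GC and length trend removed, the log2 change in sPIA against NBC females was -0.25 for Gpx1 (SE 0.1, adjusted p = 0.15) and -0.11 for Gpx4 (SE 0.08, adjusted p = 0.514, edgeR's quasi-likelihood test for both), and neither call held. Against mPIA females the values were -0.26 for Gpx1 (adjusted p = 0.101) and -0.13 for Gpx4 (adjusted p = 0.362, edgeR's quasi-likelihood test for both). Removal of the trend would also take away a real change shared by short, GC-rich transcripts, and code series and anemia cannot be told apart in these comparisons. An annotated pseudogene of Gpx4 exists, and the sources used here do not say how reads mapping to several places were counted, so the count of Gpx4 is uncertain to that extent.

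**Figure D2:**
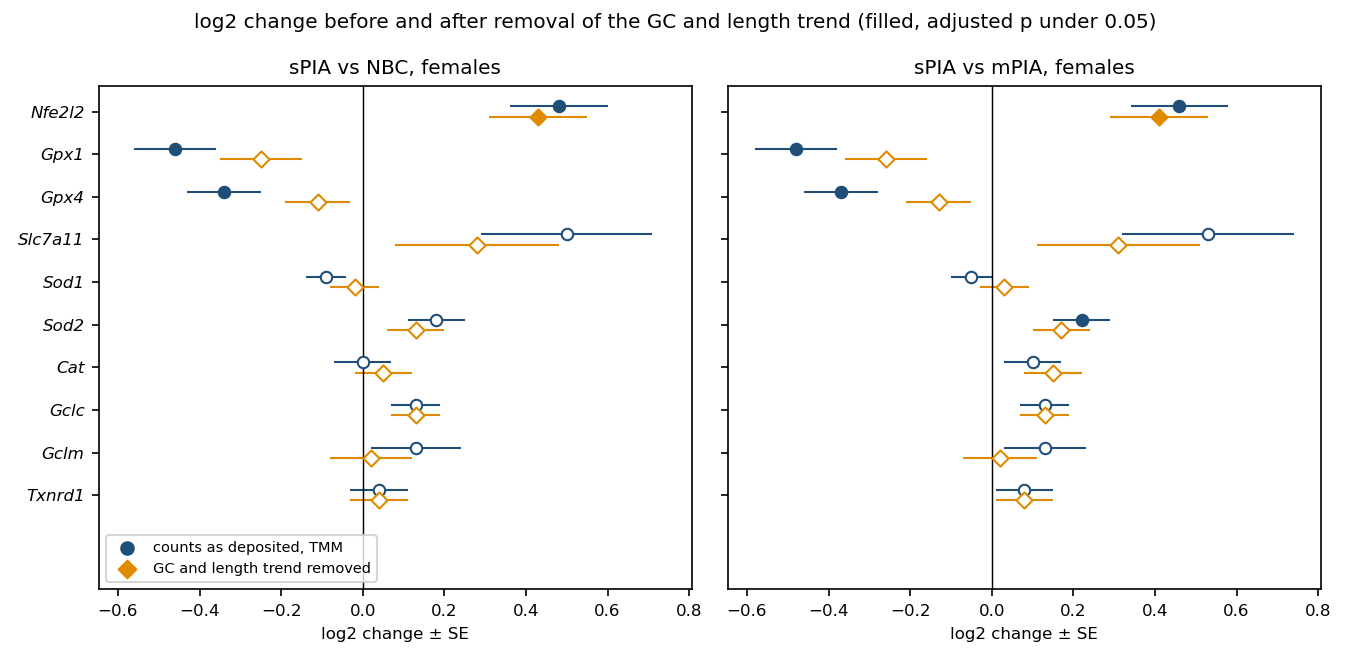
log2 changes (horizontal axis) of the 10 genes in sPIA against NBC females and in sPIA against mPIA females, with whiskers of 1 SE, from the counts as deposited (circles) and with each library's GC and length trend removed (diamonds); filled symbols have an adjusted p under 0.05. Nfe2l2 stays at 0.43 and 0.41 and filled after the removal, while Gpx1 moves to -0.25 and -0.26 and Gpx4 to -0.11 and -0.13, unfilled.

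Cat (chromosome 2, 103453849 to 103485160, minus strand) encodes catalase, the peroxisomal enzyme that breaks down hydrogen peroxide. It averaged 91.4 ± 8.67 CPM in sPIA females, 85.5 ± 4.84 CPM in mPIA females and 91.23 ± 4.77 CPM in NBC females (SD, n = 4 each). The groups overlapped, and the log2 change of sPIA against NBC females was 0 (95% interval -0.15 to 0.16, adjusted p = 0.986, edgeR's quasi-likelihood test), so the interval leaves out changes as large as those of Gpx1. In males it averaged 83.9 ± 2.82 CPM in sPIA (n = 4), 87 ± 6.74 CPM in mPIA (n = 4) and 91.4 ± 10.1 CPM in NBC (n = 3, SD throughout), with a log2 change of -0.12 for sPIA against NBC males (edgeR's quasi-likelihood test, SE 0.08, adjusted p = 0.578).

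Sod1 and Sod2 encode superoxide dismutases. Sod1 (chromosome 16, 90220754 to 90226329, plus strand), the cytosolic copper-zinc enzyme, averaged 107 ± 4.49 CPM in sPIA females, 111 ± 1.3 CPM in mPIA females and 113 ± 4.5 CPM in NBC females (SD, n = 4 each), with overlap and a log2 change of -0.09 for sPIA against NBC (95% interval -0.2 to 0.03, adjusted p = 0.313, edgeR's quasi-likelihood test). In males Sod1 lay at 109, 112, 111 and 108 CPM in sPIA and at 116, 113 and 130 CPM in NBC males 2, 3 and 4. The sPIA males were all below the NBC males, NBC male 4 being far above the rest, but the log2 change of -0.12 did not pass (edgeR's quasi-likelihood test, SE 0.06, adjusted p = 0.418). Sod1 overlaps Scaf4 on the opposite strand (45.5 CPM on average), and the sources used here do not say whether counting used the strand, so reads of the overlap may be shared.

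Sod2 (chromosome 17, 13006846 to 13040063, plus strand), the mitochondrial manganese enzyme, lay at 137, 162, 160 and 151 CPM in sPIA females, at 122, 130, 129 and 141 CPM in mPIA females and at 130, 146, 125 and 137 CPM in NBC females. Of the sPIA females, 3 were above all other females and 1 lay within their range. Against mPIA females Sod2 rose by 0.22 on the log2 scale (edgeR's quasi-likelihood test, SE 0.07, adjusted p = 0.0255), making 4 of the 10 genes called in that comparison, where 16.1% of all genes were. The libraries did not overlap for 5 of the 10 genes there, beside 24.3% of all genes. The call was lost without mPIA female 1, 2 or 3 or sPIA female 2 or 3 (highest adjusted p = 0.0931) and after removal of the GC and length trend (log2 change 0.17, adjusted p = 0.117). Against NBC females the log2 change was 0.18 (edgeR's quasi-likelihood test, SE 0.07, adjusted p = 0.0724), which passed by DESeq2 (adjusted p = 0.0472). It passed without NBC female 2 (log2 change 0.23, adjusted p = 0.0395) or sPIA female 1 (0.23, adjusted p = 0.0203, edgeR's quasi-likelihood test for both). In the other fits that left out 1 library it did not pass. Males averaged 156 ± 9.08 CPM in sPIA (n = 4), 144 ± 12 CPM in mPIA (n = 4) and 162 ± 9.23 CPM in NBC (n = 3, SD throughout). Their log2 change of sPIA against NBC was -0.05 (edgeR's quasi-likelihood test, SE 0.07, adjusted p = 0.821), and the difference between the sexes was 0.24 (females minus males, SE 0.1, adjusted p = 0.238).

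Txnrd1 (chromosome 10, 82833951 to 82897712, plus strand) encodes cytosolic thioredoxin reductase, a selenoenzyme that keeps thioredoxin reduced. It averaged 82.1 ± 6.29 CPM in sPIA females, 77.9 ± 3.41 CPM in mPIA females and 80 ± 3.41 CPM in NBC females (SD, n = 4 each), with overlap and a log2 change of 0.04 for sPIA against NBC (95% interval -0.11 to 0.18, adjusted p = 0.783, edgeR's quasi-likelihood test). In males it averaged 80.4 ± 6.53 CPM in sPIA (n = 4), 81.4 ± 4.81 CPM in mPIA (n = 4) and 83.5 ± 7.04 CPM in NBC (n = 3, SD throughout), again with overlap.

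No gene of the set passed the test in moderate anemia. In mPIA against NBC females the log2 changes lay between -0.09 (Cat) and 0.02 (Nfe2l2, Gpx1 and Gpx4), and 0 genes of the set passed by edgeR's quasi-likelihood test, by DESeq2 or by limma-voom, with 0 at an unadjusted p under 0.05. Of all genes tested, 0.00646% (1 gene) passed in that comparison and 0.355% had an unadjusted p under 0.05. The 95% intervals reached from -0.19 to 0.23 for Gpx1 and from -0.47 to 0.4 for Slc7a11, and changes within these intervals are not excluded. In mPIA against NBC males, 0 of the 10 genes passed by any of the 3 tools, where 0.653% of all genes passed edgeR's adjusted test. Slc7a11 (-0.52) and Sod2 (-0.17, unadjusted p = 0.0335, edgeR's quasi-likelihood test) had an unadjusted p under 0.05, beside 16% of all genes.

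In sPIA against NBC males as well, 0 of the 10 genes passed by edgeR's quasi-likelihood test, DESeq2 or limma-voom. Only Gpx1 had an unadjusted p under 0.05 (0.0295, edgeR's quasi-likelihood test), beside 12.1% of all genes. The adjusted test was passed by 0.194% of all genes tested (30 genes). The libraries did not overlap for 1 of the 10 genes (Sod1, lower), beside 6.31% of all genes. Against mPIA males, 0 of the 10 genes passed by edgeR's quasi-likelihood test, where 4.92% of all genes did, and 1 passed by DESeq2 and 1 by limma-voom. In edgeR, 4 of the 10 had an unadjusted p under 0.05, beside 22.3% of all genes. The libraries did not overlap for 1 of the 10 (Gpx1, lower), beside 10.6% of all genes. The sPIA effect was not shown to differ between females and males for any of the 10 genes (adjusted p 0.216 to 0.873, edgeR's quasi-likelihood test, 2 at an unadjusted p under 0.05 beside 16.5% of all genes), with 0.95% of all genes called. Nor was the mPIA effect (adjusted p 0.77 to 0.997), for which 0 of all genes were called by edgeR, DESeq2 and limma-voom and 1103 had an unadjusted p under 0.05 in edgeR.

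**Figure D3:**
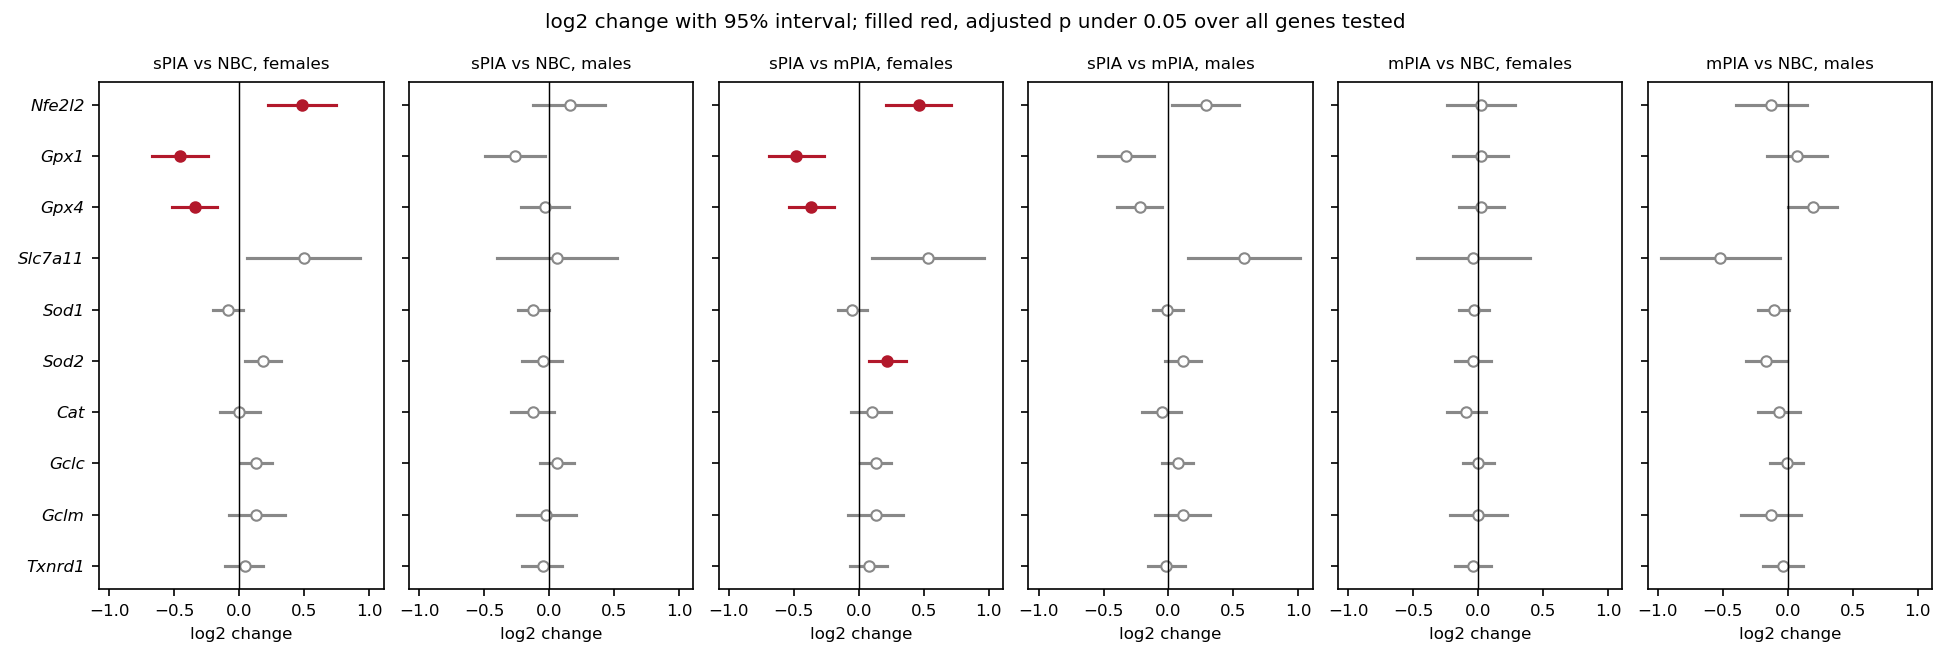
log2 change (horizontal axes) of each of the 10 genes in 6 comparisons, with 95% intervals from edgeR's quasi-likelihood fit of all 23 libraries; filled red marks an adjusted p under 0.05. Calls appear in sPIA against NBC females (Nfe2l2 0.48, Gpx1 -0.46, Gpx4 -0.34) and in sPIA against mPIA females (the same 3 genes and Sod2 at 0.22), and in none of the other panels.

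The wider pathway was read from 8 lists with 163 distinct tested genes outside the set. In sPIA against NBC females, 13 of them rose and 12 fell (15.3%, near the 16% of all genes), and their median log2 change was -0.02. With the GC and length trend removed, 10 were called, 6 of them the same genes. In sPIA against mPIA females 12 rose and 8 fell (12.3%, beside 16.1% of all genes), and in sPIA against mPIA males 4 rose and 4 fell (4.91%, beside 4.92% of all genes). In the other comparisons with NBC pups 0 of the 163 passed by edgeR's quasi-likelihood test. Of these 163 genes, 23 in sPIA against NBC males, 26 in mPIA against NBC males and 0 in mPIA against NBC females had an unadjusted p under 0.05. Of all genes tested, 12.1%, 16% and 0.355% did in the same comparisons. DESeq2 called 2, 4 and 0 of the 163 in those comparisons, and limma-voom called 0 in each.

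**Figure D4:**
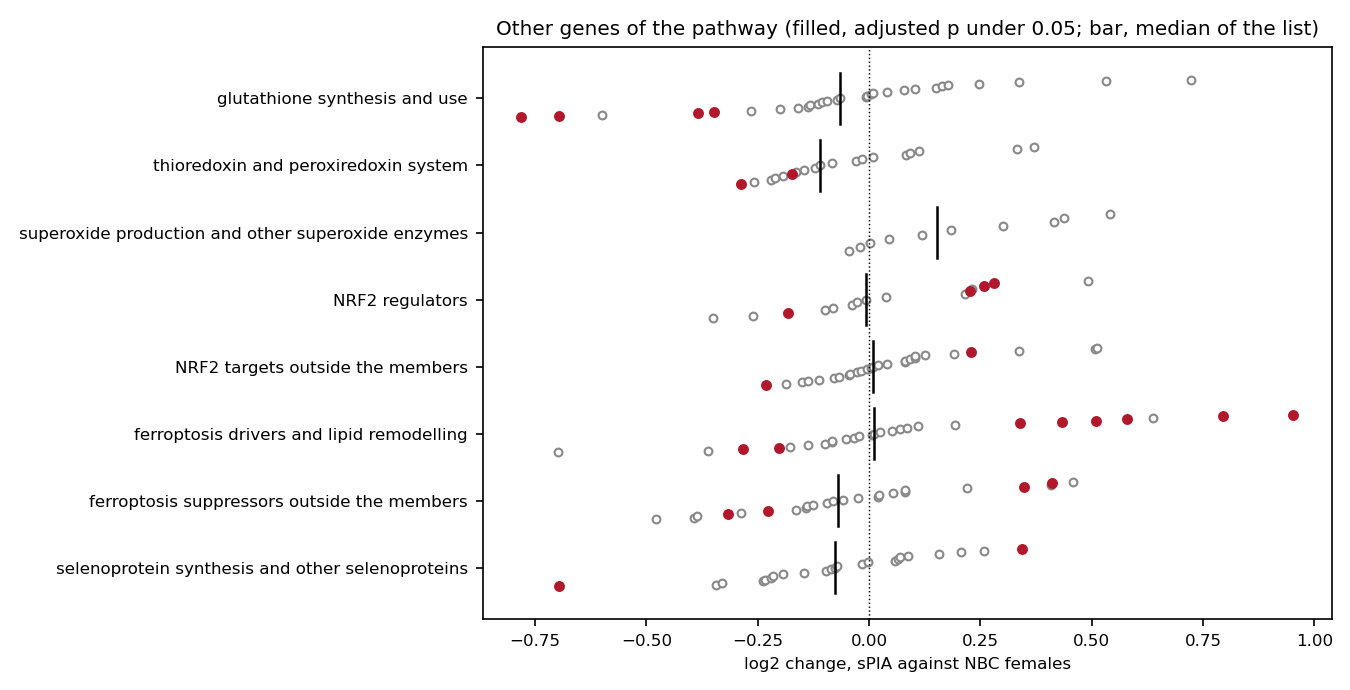
log2 change in sPIA against NBC females (horizontal axis) of the tested genes of each pathway list (rows; a gene on several lists appears in each), with black bars at the list medians; filled red marks an adjusted p under 0.05. Calls lie on both sides of 0, with 4 lower and 0 higher among glutathione synthesis and use and 6 higher and 2 lower among ferroptosis drivers and lipid remodelling. Of all genes tested, 8.12% were called higher and 7.86% lower.

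Of 29 genes of glutathione synthesis and use, 4 fell and 0 rose in sPIA against NBC females (median log2 change -0.07). Over all genes tested, 7.86% fell and 8.12% rose in that comparison. Mgst3, a membrane-bound glutathione S-transferase with peroxidase activity, lay at 38.8, 46.1, 35.9 and 42.9 CPM in sPIA females, against 76, 68.2, 65.2 and 72 CPM in NBC females. Every sPIA female was far below every NBC female. Its log2 change was -0.78 (edgeR's quasi-likelihood test, SE 0.11, adjusted p = 3.70e-05), kept in 8 of 8 fits that left out 1 library and with the GC and length trend removed (-0.68, adjusted p = 8.00e-05). Mgst3 also fell in sPIA against mPIA females (-0.75, adjusted p = 3.14e-05) and in sPIA against mPIA males (-0.35, adjusted p = 0.0483, edgeR's quasi-likelihood test), the last of which was kept in 1 of 8 such fits. Glrx, the glutaredoxin that removes glutathione from proteins, averaged 28.1 ± 1.25 CPM in sPIA and 36.6 ± 1.92 CPM in NBC females (SD, n = 4 each; log2 change -0.38, adjusted p = 0.00192, edgeR's quasi-likelihood test). It passed with the trend removed as well (-0.37, adjusted p = 0.00349). Ggt7, of the gamma-glutamyltransferase family, fell by 0.35 (adjusted p = 0.00452, edgeR's quasi-likelihood test), but not with the trend removed (-0.13, adjusted p = 0.263).

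In the thioredoxin and peroxiredoxin system, 2 of 19 genes fell and 0 rose in sPIA against NBC females (median -0.11). Among all genes tested, 7.86% fell and 8.12% rose. Txn1, the cytosolic thioredoxin that TXNRD1 reduces, averaged 65.8 ± 2.48 CPM in sPIA and 80.3 ± 4.41 CPM in NBC females (SD, n = 4 each; log2 change -0.29, adjusted p = 0.00687, edgeR's quasi-likelihood test), and passed with the trend removed (-0.25, adjusted p = 0.014). Txn2, its mitochondrial counterpart, fell by 0.17 (adjusted p = 0.0414, edgeR's quasi-likelihood test), a call kept in 1 of 8 fits that left out 1 library. Superoxide-producing oxidases and other superoxide enzymes had 0 calls among 10 tested genes by edgeR's quasi-likelihood test, DESeq2 and limma-voom, and 0 at an unadjusted p under 0.05.

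NRF2 regulators went both ways, with 3 of 15 higher and 1 lower in sPIA against NBC females. Of all genes tested, 8.12% were higher and 7.86% lower. Gsk3b, a kinase that marks NRF2 for degradation, averaged 313 ± 23.5 CPM in sPIA and 257 ± 6.01 CPM in NBC females (SD, n = 4 each; log2 change 0.28, adjusted p = 0.00179, edgeR's quasi-likelihood test). Cul3, the scaffold of the ubiquitin ligase that KEAP1 joins to NRF2, rose by 0.23 (adjusted p = 0.0293), and Sqstm1, which sequesters KEAP1, fell by 0.18 (adjusted p = 0.0231, edgeR's quasi-likelihood test for both). None of these 3 passed with the trend removed (adjusted p 0.136 for Gsk3b, 0.861 for Cul3 and 0.516 for Sqstm1), and Cul3 and Sqstm1 kept their calls in 4 of 8 fits that left out 1 library each. Mafg, also on this list, was called higher with the trend removed (log2 change 0.336), where 6.2% of all genes were called in either direction. Its log2 change of 0.216 without the removal was not called.

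NRF2 targets outside the set gave 1 rise and 1 fall among 27 genes tested in sPIA against NBC females (median 0.01). Among all genes tested, 8.12% rose and 7.86% fell. Me1, the malic enzyme that supplies NADPH, rose by 0.23 (adjusted p = 0.02), and Akr1a1, an aldehyde reductase, fell by 0.23 (adjusted p = 0.00655, edgeR's quasi-likelihood test for both). Neither passed with the trend removed (adjusted p 0.124 and 0.0801), and Me1 lost its call without NBC female 1 or 3. With the trend removed, 21 of 27 log2 changes were positive, a count without a share over all genes in that setting. Without the removal 15 of 27 were positive, beside 50% of all genes. Of the 27, 2 were called higher and 0 lower with the trend removed, where 6.2% of all genes were called in either direction. The called genes were Fth1 (0.189) and Ftl1 (0.255), the ferritin subunits that store iron, named here after their values were seen, whose log2 changes without the removal were 0.08 and 0.021. In sPIA against mPIA males, 3 of the 27 rose and 0 fell, where 4.92% of all genes were called: Idh1, another NADPH source (0.34, adjusted p = 0.00662), Me1 (0.3, adjusted p = 0.0125) and the glutathione S-transferase gene Gsta4 (0.29, adjusted p = 0.0318, edgeR's quasi-likelihood test for all). With the trend removed none of these 3 passed (adjusted p 0.0701 for Idh1, 0.0693 for Me1 and 0.0774 for Gsta4).

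Among 27 tested genes that drive ferroptosis or remodel membrane lipids, 6 rose and 2 fell in sPIA against NBC females (median 0.01). Over all genes tested, 8.12% rose and 7.86% fell. Of the called genes on this list, only Acsl4 and Hmgb1 kept their calls with the trend removed. In that setting 6.2% of all genes were called in either direction. Acsl4, which loads polyunsaturated fatty acids for the phospholipids that peroxidise in ferroptosis, lay at 161, 157, 200 and 172 CPM in sPIA females, against 105, 134, 125 and 122 CPM in NBC females. The groups were clearly apart. Its log2 change was 0.51 (edgeR's quasi-likelihood test, SE 0.08, adjusted p = 0.000239), and 0.24 with the trend removed (adjusted p = 0.0304). Agps, an enzyme of ether lipid synthesis, rose by 0.43 (adjusted p = 0.000159, edgeR's quasi-likelihood test), and by 0.21 with the trend removed, which did not pass (adjusted p = 0.0636). Hmgb1, a chromatin protein released by dying cells, averaged 21.6 ± 4.01 CPM in sPIA and 11.2 ± 1.73 CPM in NBC females (SD, n = 4 each; log2 change 0.95, adjusted p = 0.000147, edgeR's quasi-likelihood test), and also rose in sPIA against mPIA males (0.86, adjusted p = 0.0021). Hmgb1 has many annotated pseudogenes that could share its reads, so its level is uncertain.

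Of 24 tested ferroptosis suppressors outside the set, 2 rose and 2 fell in sPIA against NBC females (median -0.07). Over all genes tested, 8.12% rose and 7.86% fell. Cisd2, an iron-sulfur protein of the endoplasmic reticulum and outer mitochondrial membrane, averaged 68.5 ± 4.49 CPM in sPIA and 51.6 ± 5.66 CPM in NBC females (SD, n = 4 each; log2 change 0.41, adjusted p = 0.00107, edgeR's quasi-likelihood test) and passed with the trend removed (0.27, adjusted p = 0.011). Hspa5, the chaperone BiP, rose by 0.35 (adjusted p = 0.0191), and Coq9, needed for ubiquinone synthesis, fell by 0.32 (adjusted p = 0.00771, edgeR's quasi-likelihood test for both). Neither passed with the trend removed (adjusted p 0.0873 and 0.358), and Hspa5 kept its call in 4 of 8 fits that left out 1 library. With the trend removed 3 of the 24 were called higher and 0 lower, where 6.2% of all genes were called in either direction. The 3 were Cisd2 and the ferritin genes Fth1 and Ftl1, which are on this list too.

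GPX1, GPX4 and TXNRD1 all contain selenocysteine. Of 23 other genes of selenoprotein synthesis and selenoproteins that were tested, 1 rose and 1 fell in sPIA against NBC females (median -0.08). Among all genes tested, 8.12% rose and 7.86% fell. Selt, the selenoprotein of the endoplasmic reticulum now called Selenot, rose by 0.34 (adjusted p = 0.00247), and Gpx3, the secreted glutathione peroxidase, fell by 0.7 at a low level (5.17 ± 1.25 CPM in sPIA and 8.37 ± 0.785 CPM in NBC females, SD, n = 4 each; adjusted p = 0.0311, edgeR's quasi-likelihood test for both). Neither passed with the trend removed (adjusted p 0.0917 and 0.174), and Gpx3 kept its call in 4 of 8 fits that left out 1 library. Lrp8, also on this list, was called higher with the trend removed (log2 change 0.236), where 6.2% of all genes were called in either direction. Its log2 change of 0.158 without the removal was not called.

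Markers of other cell types were summed in the same libraries. Their calls stand beside the 16% of all genes called in sPIA against NBC females (8.12% higher, 7.86% lower). In sPIA and NBC females, the summed levels of 15 markers were 466 to 516 and 379 to 419 CPM for endothelium, without overlap (4 called higher, 1 lower), and 13400 to 14800 and 12900 to 14100 CPM for neurons (2 higher, 4 lower). For choroid plexus they were 120 to 2000 and 162 to 2560 CPM, with 0 of 15 called by edgeR's quasi-likelihood test, DESeq2 and limma-voom and 0 at an unadjusted p under 0.05. Nfe2l2, Gpx1 and Gpx4 kept their calls against NBC females in the fit without sPIA female 2 and in that without NBC female 2, the females with the highest Ttr. Each of these fits still held the other library, and no fit left out both. For microglia the summed levels were 526 to 697 and 512 to 561 CPM, and for oligodendrocytes 2600 to 8390 and 4010 to 5670 CPM. For each, 0 of 15 were called by edgeR's quasi-likelihood test, DESeq2 and limma-voom, with 1 microglial and 0 oligodendrocyte markers at an unadjusted p under 0.05. All of these markers were detected. Of 10 red cell markers with a row, 4 were at 0 in every library, Hbb-bs among them, and the summed level was 6.02 to 22.3 CPM in sPIA and 2.91 to 5.04 CPM in NBC females, without overlap, with 1 of the 3 tested markers called higher. The part of cell content in the changes of Nfe2l2, Gpx1 and Gpx4 was not tested.

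For the 3 genes called against NBC females, the genes most alike over the 23 libraries were listed by Pearson's r of log2 CPM. This is a description only, since the libraries differ together in group, code series and GC trend. Nfe2l2 was most like Emx2 (r = 0.9), Lef1 (r = 0.81) and Dpf3 (r = 0.8). Gpx1 was most like Atp5g1 (r = 0.92), Clptm1 (r = 0.91) and Uqcrc1 (r = 0.91). Gpx4 was most like Cox5b (r = 0.94), Sirpa (r = 0.9) and Sfxn3 (r = 0.9).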

How the data were processed

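Polyadenylated RNA of 23 mouse hippocampi was measured by RNA-seq. The authors deposited raw read counts, 1 whole number per gene and library, whose column names were matched to the samples (0 left over). Build mm10 and the tools TopHat2 (2.0.13), Subread, FastQC and edgeR are named per the submitters' processing notes, and the RNAqueous and TruSeq kits per the labels' protocols. The sources used here do not give the tools' roles, the annotation, the strand used or how multi-mapping reads were treated. No 2 replicates were alike within sampling noise (chi-square over its degrees of freedom 3 to 30.1). The design text describes 4 animals per sex and group, so each library was read as 1 pup.

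All 23 libraries were fitted with 6 group means by edgeR's robust quasi-likelihood test with TMM normalization, after filterByExpr (minimum count 10, minimum total 15), with Benjamini-Hochberg adjustment over 15475 genes at 0.05 in each of 8 comparisons. Levels are TMM-normalised counts per 1000000 (CPM), and log2 CPM for likeness used a prior count of 2. Positions, GC content and exonic length came from GENCODE M21. The GC and length trend of each library was removed through offsets from splines with 5 degrees of freedom, for the 15343 tested genes with both values. The fit was also run on simulated counts with 200 changed genes. These held no GC trend and no code series, so that run could not show how either bears on the calls.

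Alternatives were other size factors, no filter, DESeq2, limma-voom, fits of the compared groups alone, each library left out, replicate number or library code as a block, and the trend removal with and without the block. The genes of the set and the lists were chosen with earlier results of these data known. From each list, at most 3 called genes with the smallest p were named per comparison, and likeness was listed for genes of the set called against NBC. Fth1, Ftl1, Mafg and Lrp8, called with the trend removed but not in the fit of all libraries, were named after their values were seen. Versions were DESeq2 1.42.0, limma 3.58.1, edgeR 4.0.16 and R 4.3.3 for the tests, and matplotlib 3.10.9, pandas 2.3.3 and Python 3.11.15 for tables and plots.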

Additional observations from a re-analysis of the deposited data

Results flagged for a closer look

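Single libraries of the 10 genes that lay far from the other libraries of their group (by Dixon's test at the 95% level) were found in 6 of 50 groups of 4, and chance finds about 1 in 20. Nfe2l2 stood at 23.1 CPM in sPIA female 3, against 17.3 to 18.1 CPM in the other sPIA females, and this is the library without which its call was lost. Slc7a11 stood at 77.3 CPM in mPIA male 1, against 43.1 to 46.3 CPM in the other mPIA males. Gpx4 stood at 96.8 CPM in mPIA female 1, against 90.55 to 91.46 CPM in the other mPIA females. Cat stood at 88.1 CPM in sPIA male 3, against 82.2 to 83.2 CPM. Gclm stood at 26.7 CPM in NBC female 1, against 31 to 31.5 CPM. Txnrd1 stood at 70.7 CPM in sPIA male 2, against 82.7 to 84.7 CPM.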

How the results depend on the processing

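Of 1410 values of single genes of the set under other settings, 13 gained a call, 17 lost one, and 99 had another sign than the value reported, in 0 of which either value was called. With the GC and length trend removed, genes called numbered 960 in sPIA against NBC females, 1188 in sPIA against mPIA females, 217 in sPIA against mPIA males, 0 in mPIA against NBC females and 44 for the sex difference of the sPIA effect, and 1 gene of the set was called in each of the first 2. DESeq2 called 155 genes in sPIA and 381 in mPIA against NBC males, 1220 in sPIA against mPIA males (1 of the set) and 463 for the sex difference of the sPIA effect. limma-voom called 0 genes in mPIA against NBC females and 24 in mPIA against NBC males, and 1 of the set in sPIA against mPIA males. Fits of the compared groups alone called 6 genes in sPIA and 0 in mPIA against NBC males, 2 in mPIA against NBC females, 307 in sPIA against mPIA males and 5 for the sex difference of the sPIA effect. With the library code as a block, 6 genes were called in mPIA against NBC females, 0 of them in the set. The causes of these shifts were not tested.

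With the replicate number as a block, 0 genes were called in mPIA against NBC females, and the other counts of genes stayed within 1.5 times, with Slc7a11 gained in sPIA against mPIA females (adjusted p = 0.0379, edgeR's quasi-likelihood test). The replicate block with the trend removed called 824 genes in sPIA against NBC females and 1016 in sPIA against mPIA females (1 of the set in each), 143 in sPIA against mPIA males, 0 in mPIA against NBC females and 33 for the sex difference of the sPIA effect. Correlations of same-numbered deviations were 0.11, 0.04, 0.12 and 0.15 in mPIA against NBC females, whose codes share their leading numbers, so that 3 of 4 pairs were over 0.1, and -0.08 to 0.09 in the other 5 comparisons. Since not every pair was over 0.1, the numbers were not taken to pair the pups.

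Leaving out each library in turn gave 1421 to 2705 genes in sPIA against NBC females (1421 without NBC female 1, 1562 without sPIA female 3), with 2 to 4 of the set. It gave 1582 (without mPIA female 1) to 2769 genes in sPIA against mPIA females, with 2 (without sPIA female 3) to 4 of the set. In sPIA against mPIA males it gave 230 genes without mPIA male 1, 355 without mPIA male 4, 302 without sPIA male 1, 306 without sPIA male 2 and 1340 without sPIA male 4, with 0 to 2 of the set (2 without sPIA male 4). In sPIA against NBC males it gave 4 to 249 genes (249, 53 and 4 without NBC males 2, 3 and 4, 48 and 18 without sPIA males 1 and 4). In mPIA against NBC males it gave 0 to 1124 (1124, 32 and 0 without NBC males 2, 3 and 4, 24, 16, 40 and 7 without mPIA males 1 to 4), and in mPIA against NBC females 0 to 1 (1 only without mPIA female 1). The sex difference of the sPIA effect had 5 to 327 genes (327 and 49 without NBC males 2 and 4, 5 and 79 without NBC females 1 and 3, 312 and 17 without sPIA males 1 and 4, 42 without sPIA female 3), and that of the mPIA effect 0 to 69 (69 without NBC male 2). The spread of the set's genes between libraries was below counting error in 5 of 60 combinations of gene and group, where depth limits what the spread can show.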
